A study of Homo sapiens with 4 samples.

Results

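Amino acid transporters of the solute carrier (SLC) superfamily were followed across 4 arrays of SUM159 cells. The set was a list of 36 genes, and its members were the probe sets that the array annotation gives to 1 of these genes alone. All 36 genes had at least 1 such probe set, 95 of the 54675 on the array. Each gene was represented by its probe set of highest mean over the arrays. On 1 or more arrays 28 of the 36 had a log2 level of 6 or higher, as did 12365 of the 19775 genes that could be measured this way. A log2 level under 6 was treated as background, where a difference has no reliable size.

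SUM159 is an established human breast cancer cell line. All 4 groups carried the pTRIPZ construct, from which miR-100 is expressed when doxycycline is given, and all were flow-sorted by aldehyde dehydrogenase (ALDH) status before being kept in suspension culture. The groups were ALDH+ cells with DOX, ALDH+ control cells without DOX, ALDH- cells with DOX and ALDH- control cells without DOX. Each group was 1 array, and a difference between 2 arrays was therefore not checked by replicates. The titles and source names give doxycycline and 10 h, while the sample descriptions give 13 h and Doxorubicin, so that DOX stands here for the treated samples. The design text names the search for targets of miR-100 in breast cancer stem cells, taken as ALDH+, and in the remaining cells. Mature miR-100 was not measured by these arrays, and DOX-treated cells lacking the construct were not analysed here.

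Cells take up amino acids through carriers that either ride on the sodium gradient or exchange one amino acid for another. Several exchangers of the SLC7 family work only when bound to a heavy chain, SLC3A2 or SLC3A1. When amino acids run short, the kinase GCN2 (EIF2AK4) phosphorylates the initiation factor eIF2alpha, translation of the transcription factor ATF4 increases, and ATF4 activates genes of amino acid synthesis and several carriers. In tumour cells SLC1A5, SLC7A5 and SLC7A11 are the best known of these carriers, supplying glutamine, leucine and cystine.

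The induced microRNA is shown because DOX was given to express it. Its mature sequence has the seed, bases 2 to 8, in capitals (RefSeq, GRCh38.p14, chr11:122152275-122152296, minus strand).
hsa-miR-100-5p: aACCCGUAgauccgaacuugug

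Promoter windows that hold a response motif are shown for 3 carriers that were higher in ALDH+ cells and for the arginine carrier SLC7A1, which did not pass the test. A window covers 250 bases before to 50 bases after an annotated start in RefSeq (GRCh38.p14), printed 5′ to 3′ on the strand of the gene. Capitals mark TGATGNAA or its reverse complement TTNCATCA, the letters of the amino acid response element that ATF4 binds with its partners. The windows lie at chr2:64989149-64989448 (plus strand) for SLC1A4, chr19:46784765-46785064 (minus strand) for SLC1A5, chr11:62881449-62881748 (plus strand) for SLC3A2 and chr13:29595639-29595938 (minus strand) for SLC7A1.
SLC1A4: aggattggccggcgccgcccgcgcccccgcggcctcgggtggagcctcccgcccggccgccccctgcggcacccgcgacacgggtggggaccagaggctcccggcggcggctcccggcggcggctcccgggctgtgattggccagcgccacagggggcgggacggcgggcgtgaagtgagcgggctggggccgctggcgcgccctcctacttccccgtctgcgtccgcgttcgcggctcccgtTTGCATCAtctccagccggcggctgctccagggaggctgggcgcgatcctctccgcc
SLC1A5: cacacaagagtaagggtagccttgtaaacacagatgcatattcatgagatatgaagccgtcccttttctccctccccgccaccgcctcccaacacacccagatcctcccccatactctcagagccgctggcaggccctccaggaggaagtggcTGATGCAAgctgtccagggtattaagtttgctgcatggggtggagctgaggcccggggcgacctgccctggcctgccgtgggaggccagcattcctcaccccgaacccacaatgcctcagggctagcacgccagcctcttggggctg
SLC3A2: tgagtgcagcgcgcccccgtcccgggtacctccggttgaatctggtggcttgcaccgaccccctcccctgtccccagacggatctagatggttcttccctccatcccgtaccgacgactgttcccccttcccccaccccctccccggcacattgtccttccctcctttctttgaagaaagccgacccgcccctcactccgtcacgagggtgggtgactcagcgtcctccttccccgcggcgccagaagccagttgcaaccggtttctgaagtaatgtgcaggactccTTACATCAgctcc
SLC7A1: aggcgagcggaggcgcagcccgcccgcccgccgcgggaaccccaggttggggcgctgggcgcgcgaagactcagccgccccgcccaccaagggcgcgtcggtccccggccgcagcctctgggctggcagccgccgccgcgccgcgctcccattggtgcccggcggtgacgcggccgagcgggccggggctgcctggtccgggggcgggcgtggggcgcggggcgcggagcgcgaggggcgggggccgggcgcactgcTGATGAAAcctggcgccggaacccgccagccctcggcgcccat

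Of the 28 members with a window in the table, 6 held the letters in at least 1 window, which is 21.4%, against 4.46% of all 27305 genes with a window. The members had 49 windows, of which 12.2% held them, against 3.62% of all windows. The other members with a match were SLC1A3 and SLC38A1. Other windows of SLC1A4, SLC1A5 and SLC3A2 did not hold the letters, nor did those of SLC7A5 and SLC43A1. A match is a description of the sequence and was not tested for binding.

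The arrays had median log2 levels between 6.18 and 6.22 and between 11601 and 11935 genes at a level of 6. Of the markers fixed for SUM159, VIM lay between 13.64 and 13.79 and CD44 between 12.44 and 12.82, ESR1, PGR, EPCAM and CDH1 stayed under 6, and ERBB2, listed as low, lay between 9.22 and 10.17. ALDH1A1, the enzyme most often linked to the sorted activity, was at 11.77 in ALDH+ control cells against 10.72 in ALDH- control cells, but at 10.66 in ALDH+ DOX cells against 10.86 in ALDH- DOX cells. ALDH1A3, the other marker fixed for the sort, was at 6.48 in ALDH+ control cells against 5.86 in ALDH- control cells. In DOX-treated cells ALDH1A3 was lower in the ALDH+ fraction, at 6.64 against 7.79 in ALDH- cells. Of 8 immune, endothelial and erythroid markers with a probe set, 2 reached 6, HBB and PECAM1, and PECAM1 differed by -3.80 between the ALDH+ and ALDH- control arrays. The summed linear level of the 8 was 422 in ALDH+ DOX and 344 in ALDH+ control cells, against 963 in ALDH- DOX and 1061 in ALDH- control cells. The part of these markers in the results was not tested.

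Some carriers differed in level between the ALDH fractions. Among those higher in ALDH+ cells were the neutral exchangers SLC1A4 and SLC1A5, and among those lower were the glutamate carrier SLC1A1 and the taurine carrier SLC6A6. In bulk RNA of a sorted fraction, fewer cells of a kind and less RNA per cell cannot be told apart. An additive limma model of ALDH and DOX over the 4 arrays, in which the DOX and control pairs stand in for replicates, put SLC1A4, SLC43A1, SLC1A5, SLC3A2 and SLC7A5 higher and SLC1A1, SLC6A15, SLC38A4, SLC36A1, SLC25A13 and SLC6A6 lower, each at a Benjamini-Hochberg adjusted p under 0.05 over all 12365 genes. That is 5 of 28 members higher, or 17.9%, against 13.5% of all genes, and 6 of 28 lower, or 21.4%, against 9.58% of all genes. SLC6A15 reached 6 only in the ALDH- arrays, and with levels under 6 set to 6 it did not pass (limma adjusted p = 0.163), which left 5 lower. The median ALDH estimate of the 28 members was -0.17 on the log2 scale, against 0.027 over all genes tested. With 1 residual degree of freedom for each gene, the p-values rest on the scatter among these 4 arrays alone, some of which may be technical.

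**Figure D1:**
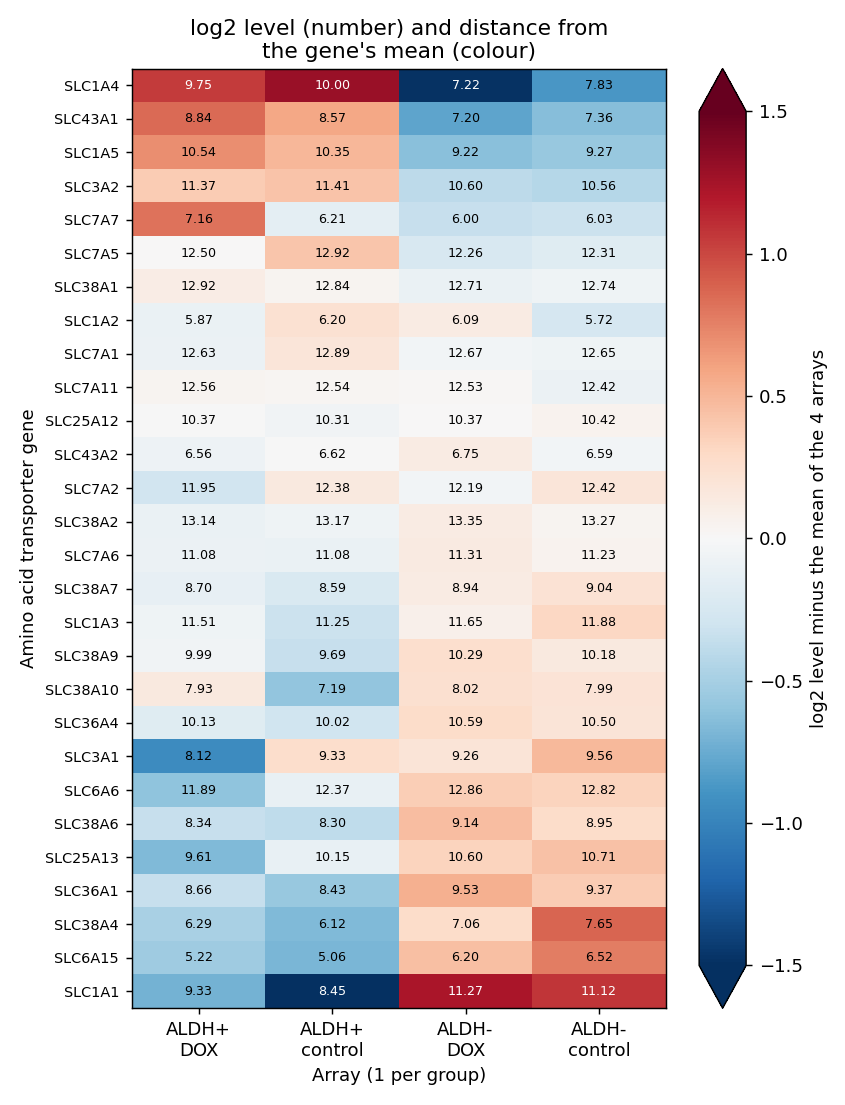
log2 level of the 28 amino acid transporters at 6 or more in at least 1 array, with ALDH+ DOX, ALDH+ control, ALDH- DOX and ALDH- control arrays from left to right. Numbers are levels, and colour is the distance from the gene's mean over the 4 arrays. Genes are ordered by their ALDH estimate, with SLC1A4 at the top and SLC1A1 at the bottom.

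The neutral amino acid exchanger SLC1A4 (ASCT1), which carries serine, alanine, cysteine and threonine, rose the most. It was at a log2 level of 9.75 in ALDH+ DOX and 10.00 in ALDH+ control cells, against 7.22 in ALDH- DOX and 7.83 in ALDH- control cells. Both ALDH+ arrays lay above both ALDH- arrays, and the estimate was 2.35 ± 0.27 (SE, limma adjusted p = 9.5e-05), or 5.10-fold. Of its 5 probe sets, 4 reached a level of 6, and all 4 passed in a fit over single probe sets, with estimates from 1.87 to 2.50. SLC1A5 (ASCT2), the main glutamine carrier of many tumour cells, was at 10.54 in ALDH+ DOX and 10.35 in ALDH+ control cells, against 9.22 in ALDH- DOX and 9.27 in ALDH- control cells. Its single probe set gave 1.20 ± 0.24 (SE, limma adjusted p = 0.00382), or 2.29-fold higher in ALDH+ cells. SLC1A4 and SLC1A5 are the neutral exchangers of the family that also holds the glutamate carriers.

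Of the leucine carriers LAT1 to LAT4, SLC43A1 and SLC7A5 passed, SLC43A2 did not, and SLC7A8 lay under 6. SLC43A1 (LAT3), which carries leucine and other branched-chain amino acids by facilitated diffusion, was at 8.84 in ALDH+ DOX and 8.57 in ALDH+ control cells, against 7.20 in ALDH- DOX and 7.36 in ALDH- control cells. The groups did not overlap, and the estimate was 1.43 ± 0.28 (SE, limma adjusted p = 0.00339), or 2.69-fold. SLC3A2 (CD98, 4F2hc), the heavy chain that brings SLC7A5, SLC7A6, SLC7A7 and SLC7A11 to the cell surface, was at 11.37 in ALDH+ DOX and 11.41 in ALDH+ control cells, against 10.60 in ALDH- DOX and 10.56 in ALDH- control cells. The estimate for this heavy chain was 0.81 ± 0.19 (SE, limma adjusted p = 0.00856). SLC7A5 (LAT1), its leucine-carrying partner, was at 12.50 in ALDH+ DOX and 12.92 in ALDH+ control cells, against 12.26 in ALDH- DOX and 12.31 in ALDH- control cells. The rise of SLC7A5 was small, 0.42 ± 0.12 (SE, limma adjusted p = 0.0225), and the adjusted p was 0.103 without the filter on level and 0.22 when the variance was not allowed to depend on the level. In the fit over single probe sets SLC7A5 did not pass (limma adjusted p = 0.0601). The related carrier SLC43A2 (LAT4) lay between 6.56 and 6.75 in all arrays.

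The other partners of SLC3A2 did not pass the test. SLC7A11 (xCT), the cystine-glutamate exchanger that feeds glutathione synthesis, lay between 12.42 and 12.56 in the 4 arrays, and its ALDH estimate was 0.072 with a 95% interval of -0.16 to 0.30. SLC7A6 (y+LAT2), which exchanges arginine for glutamine, lay between 11.08 and 11.31, with an estimate of -0.19 (95% interval -0.57 to 0.20). SLC7A7 (y+LAT1), a carrier of the same kind, was at 7.16 in ALDH+ DOX and 6.21 in ALDH+ control cells, against 6.002 in ALDH- DOX and 6.03 in ALDH- control cells. The ALDH+ DOX array alone stood out for SLC7A7, and the limma adjusted p was 0.145. The arginine and lysine carriers SLC7A1 (CAT1) and SLC7A2 (CAT2) had ALDH estimates of 0.10 (95% interval -0.13 to 0.33) and -0.14 (95% interval -0.40 to 0.13).

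Among the sodium-coupled SLC38 carriers of glutamine and alanine, SLC38A1 (SNAT1) had an ALDH estimate of 0.16 (95% interval -0.049 to 0.36) and SLC38A2 (SNAT2), which amino acid shortage is known to induce, one of -0.16 (95% interval -0.33 to 0.011). The other 2 probe sets of SLC38A2 gave -0.40 each and passed in the fit over single probe sets, with limma adjusted p of 0.0443 and 0.0476. SLC38A4 (SNAT4) was at 6.29 in ALDH+ DOX and 6.12 in ALDH+ control cells, against 7.06 in ALDH- DOX and 7.65 in ALDH- control cells. It fell by 1.15 ± 0.30 on the log2 scale in ALDH+ cells (SE, limma adjusted p = 0.0159), close to background in the ALDH+ arrays.

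**Figure D2:**
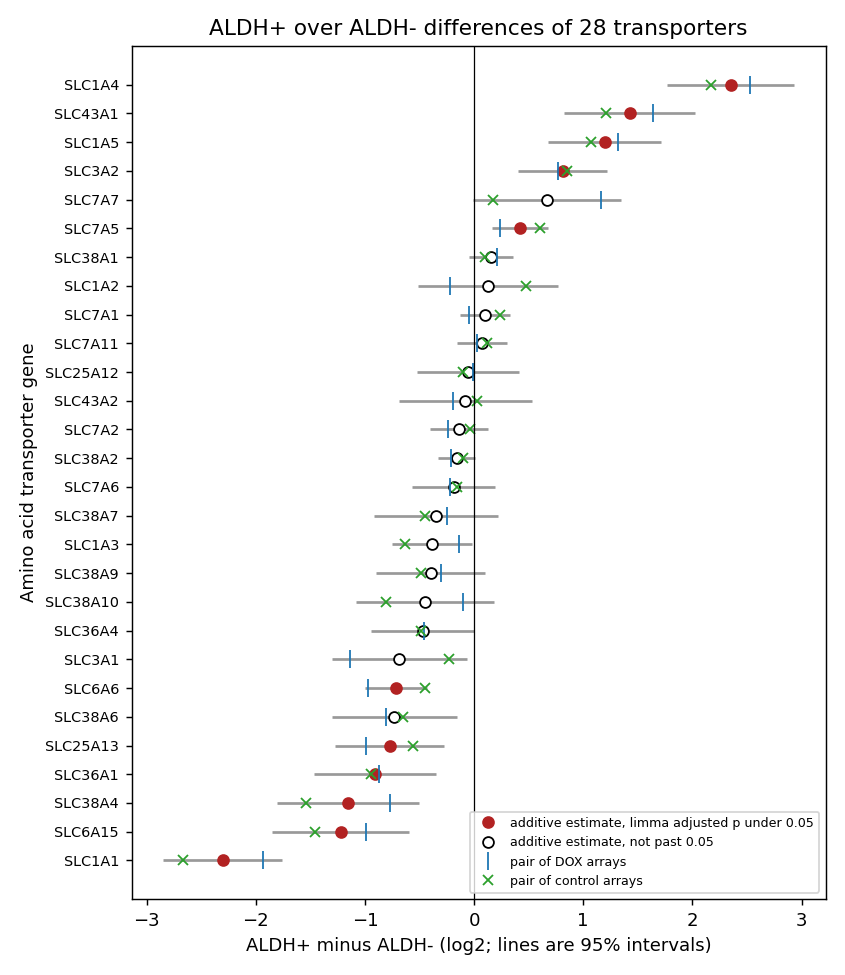
ALDH+ minus ALDH- difference on the log2 scale for the 28 transporters, with the additive estimate (circle, filled red where the limma adjusted p is under 0.05), its 95% interval, and the difference in the DOX arrays (vertical tick) and in the control arrays (cross). SLC1A4 at 2.35 and SLC1A1 at -2.30 lie at the ends.

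The glutamate carrier SLC1A1 (EAAT3), which takes up glutamate, aspartate and cysteine, fell the most. It was at 9.33 in ALDH+ DOX and 8.45 in ALDH+ control cells, against 11.27 in ALDH- DOX and 11.12 in ALDH- control cells. The estimate was -2.30 ± 0.25 (SE, limma adjusted p = 6.9e-05), a level 4.93-fold lower in ALDH+ cells, and its other probe set gave -2.53. SLC1A3 (EAAT1), another glutamate carrier, was at 11.51 in ALDH+ DOX and 11.25 in ALDH+ control cells, against 11.65 in ALDH- DOX and 11.88 in ALDH- control cells. It did not pass, with a limma adjusted p of 0.121, and SLC1A2 (EAAT2) stayed close to background, between 5.72 and 6.20.

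The other members that were lower in ALDH+ cells were SLC6A6, SLC6A15, SLC36A1 and SLC25A13. SLC6A6 (TauT), the taurine carrier, was at 11.89 in ALDH+ DOX and 12.37 in ALDH+ control cells, against 12.86 in ALDH- DOX and 12.82 in ALDH- control cells, with an estimate of -0.71 ± 0.13 (SE, limma adjusted p = 0.00226). In the fit over single probe sets of SLC6A6, 205920_at (-1.10) and 205921_s_at (-1.82) also passed, and 211030_s_at (-0.56) did not. For 211030_s_at the ALDH+ minus ALDH- difference changed direction, at 0.87 in the control arrays and -2.00 in the DOX arrays. SLC6A15 (B0AT2), a carrier of branched-chain amino acids and proline known from brain, was at 5.22 in ALDH+ DOX and 5.06 in ALDH+ control cells, against 6.20 in ALDH- DOX and 6.52 in ALDH- control cells. Its estimate was -1.22 ± 0.29 (SE, limma adjusted p = 0.00977), but -0.36 (limma adjusted p = 0.163) with levels under 6 set to 6, since both ALDH+ arrays lay at background.

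SLC36A1 (PAT1), a proton-coupled carrier of small amino acids on lysosomes, was at 8.66 in ALDH+ DOX and 8.43 in ALDH+ control cells, against 9.53 in ALDH- DOX and 9.37 in ALDH- control cells. The estimate was -0.91 ± 0.26 (SE, limma adjusted p = 0.0240) for SLC36A1, but in the fit over single probe sets it did not pass (limma adjusted p = 0.0623). Its relative SLC36A4 had an estimate of -0.47, the lysosomal glutamine carrier SLC38A7 one of -0.35 and SLC38A9, the lysosomal arginine sensor of mTORC1, one of -0.40, and none of them passed. The other probe sets of SLC38A7 gave 0.17 and 0.15 and that of SLC38A9 0.61, so that the probe sets of both genes disagreed in direction. SLC25A13 (citrin), a mitochondrial exchanger of aspartate and glutamate, was at 9.61 in ALDH+ DOX and 10.15 in ALDH+ control cells, against 10.60 in ALDH- DOX and 10.71 in ALDH- control cells. It fell by 0.77 ± 0.23 on the log2 scale (SE, limma adjusted p = 0.0289), while its close relative SLC25A12 (aralar) had an estimate of -0.054 (95% interval -0.52 to 0.42). In the fit over single probe sets the brightest of SLC25A13 did not pass (limma adjusted p = 0.0736). Of its others, 203775_at (-1.09) passed and 229061_s_at (-0.88) did not. SLC38A6, an orphan member of its family, had an estimate of -0.73 with a limma adjusted p of 0.0646.

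**Figure D3:**
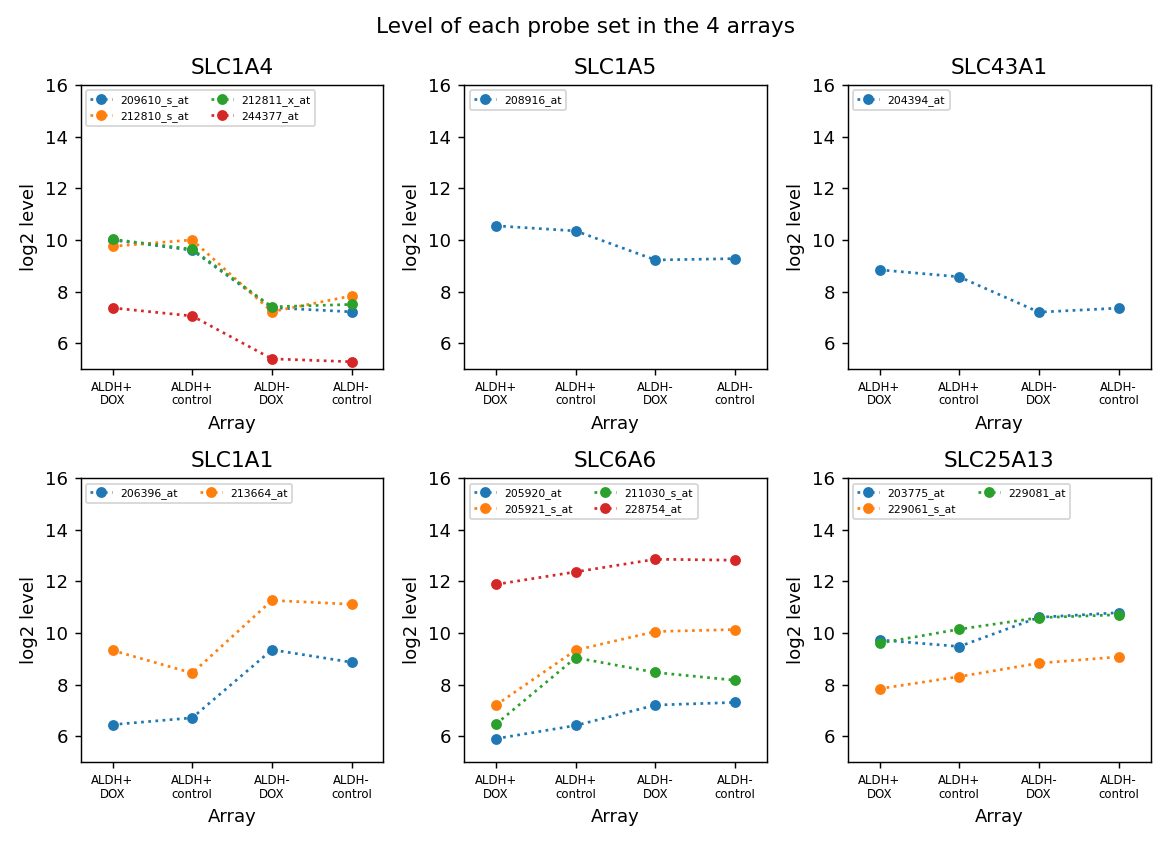
log2 level (vertical axis) of every probe set at 6 or more in at least 1 array for 6 transporters that passed the ALDH test, in the ALDH+ DOX, ALDH+ control, ALDH- DOX and ALDH- control arrays from left to right. Dotted lines only join the values of a probe set. All 4 probe sets of SLC1A4 are higher in the ALDH+ arrays, and both of SLC1A1 are lower.

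The ALDH+ and ALDH- arrays were also compared within each treatment. By size, meaning 2-fold or more where 1 or both arrays had a level of 6, SLC1A4 (2.17), SLC43A1 (1.21) and SLC1A5 (1.07) were higher and SLC1A1 (-2.67), SLC38A4 (-1.54) and SLC6A15 (-1.46) lower in ALDH+ control cells on the log2 scale. These are 3 of 28 each way, or 10.7%, against 6.09% of all genes higher and 4.4% lower. SLC6A15 lay at background in the ALDH+ arrays, and with levels under 6 set to 6 its difference was -0.52 and 2 members were lower. In DOX-treated cells SLC1A4 (2.53), SLC43A1 (1.64), SLC1A5 (1.32) and SLC7A7 (1.16) were higher, 4 of 28 against 11.4% of all genes. SLC1A1 (-1.94) and SLC3A1 (-1.14) were lower there, 2 of 28 against 5.32% of all genes. The pairs share no array, and 25 of 28 members, or 89.3%, had the same sign in both, against 73.5% of 11915 genes. The exceptions were SLC1A2, SLC7A1 and SLC43A2.

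**Figure D4:**
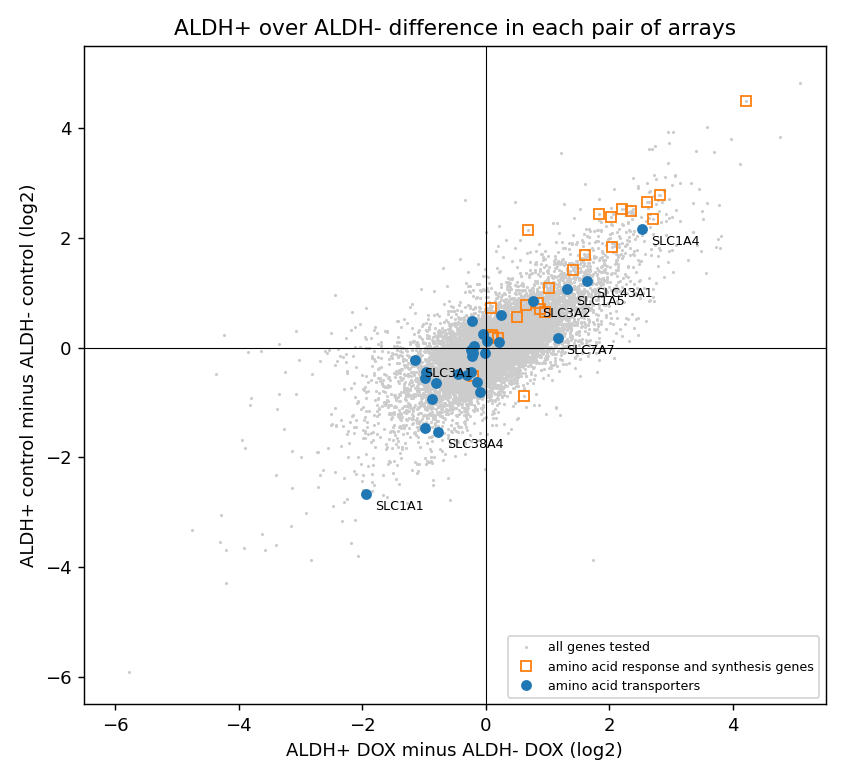
ALDH+ minus ALDH- difference on the log2 scale in DOX arrays (horizontal axis) and in control arrays (vertical axis) for the 28 transporters (blue points), 24 genes of the amino acid response and synthesis (orange squares) and all 12365 genes tested (grey). SLC1A4 lies among the orange squares, which are mostly above 0 in both pairs, and most other transporters lie near or below 0.

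Genes of the wider pathway were described from lists made together with the tests. Of 24 tested genes of the amino acid response and of serine, asparagine and proline synthesis, 19 were higher in ALDH+ cells and 0 lower by the limma test, against 13.5% and 9.58% of all genes, with a median estimate of 1.23. The genes that were higher included the glutathione-degrading enzyme CHAC1 (4.36 ± 0.28 SE), the mitochondrial enzyme PCK2 (2.81 ± 0.19 SE), the stress protein NUPR1 (2.63 ± 0.19 SE) and the transsulphuration enzyme CBS (2.53 ± 0.25 SE). CHAC1 lay at background in ALDH- DOX cells (5.44) and close to it in ALDH- control cells (6.08), so that the size of its estimate is uncertain. ATF4 itself was at 13.21 in ALDH+ DOX and 13.22 in ALDH+ control cells, against 12.36 in ALDH- DOX and 12.40 in ALDH- control cells, a rise of 0.84 ± 0.09 (SE, limma adjusted p = 8.3e-05). Earlier results on these arrays had already shown the rise of this list.

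Of 9 tested other amino acid carriers, 0 were higher and 3 lower in ALDH+ cells by the limma test, against 13.5% and 9.58% of all genes. The 3 are mitochondrial, but so are SLC25A29 and SLC25A38, which went the other way. Their estimates were 0.76 ± 0.28 and 0.44 ± 0.18 (SE), and neither passed (limma adjusted p = 0.0636 and 0.0927). SLC25A18, a glutamate carrier, had an estimate of -1.30 ± 0.33 (SE), SLC25A15, the ornithine carrier, -0.87 ± 0.18 (SE) and SLC25A44, a carrier of branched-chain amino acids, -0.50 ± 0.15 (SE). SLC25A18 lay at background in ALDH+ control cells (5.28) and close to it in ALDH+ DOX cells (6.38), so that the size of its estimate is uncertain. The other 13 with a probe set lay under 6 in all arrays. Among 13 genes that use cystine, glutamine or arginine, 2 were higher and 4 lower, against 13.5% and 9.58% of all genes. ASS1, which makes arginine from citrulline, gave 1.06 ± 0.12 (SE) and the glutathione peroxidase GPX4 0.95 ± 0.25 (SE). GCLM and GCLC, the subunits of the enzyme that starts glutathione synthesis, gave -1.87 ± 0.23 and -0.85 ± 0.27 (SE), ODC1, which makes polyamines from ornithine, -0.66 ± 0.10 (SE) and GOT2, the mitochondrial aspartate aminotransferase, -0.43 ± 0.13 (SE). The estimates of GCLC and GPX4 came mostly from the DOX arrays. The ALDH+ minus ALDH- difference of GCLC was -1.43 with DOX and -0.27 in the controls, and that of GPX4 1.46 and 0.44.

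Of 13 tested kinases, sensors and regulators upstream of the carriers, 2 were higher and 1 lower, near the 13.5% and 9.58% of all genes. PPP1R15A, a phosphatase subunit that ATF4 signalling induces, gave 1.77 ± 0.26 (SE), RRAGD, a Rag GTPase of the mTORC1 pathway, 1.30 ± 0.28 (SE) and the mTORC1 subunit RPTOR -1.10 ± 0.29 (SE). MYC and NFE2L2, which control several carriers, did not pass, with estimates of -0.30 ± 0.16 and 0.24 ± 0.16 (SE). Their pairs differed. The ALDH+ minus ALDH- difference of MYC was 0.20 in the controls and -0.81 with DOX, and that of NFE2L2 0.50 and -0.031.

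No carrier passed the additive model for DOX. For this term 0 of 28 members passed at a limma adjusted p under 0.05, against 0.00809% of all genes higher (1 gene) and 0% lower, and 2 of 28 members, SLC3A1 and SLC7A2, against 5.27% of all genes had an unadjusted p under 0.05. In a fit over single probe sets 0 of 60 passed in either direction, against 0% of 30732. For the ALDH term that fit passed 7 of the 60 higher and 10 lower, against 6.44% and 5.27% of all probe sets. Probe sets of the same gene were counted apart, and SLC1A4, SLC1A1, SLC6A6 and SLC38A2 each gave more than 1. The 30732 also include probe sets given no gene or several genes. The model counts a DOX response that differs between fractions as error, so that each fraction was also described alone.

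In ALDH- cells 0 of 28 carriers were 2-fold higher or lower with DOX, against 0.271% of all genes higher and 0.0508% lower, and differences ran from -0.61 for SLC1A4 to 0.37 for SLC1A2. In ALDH+ cells 0 of 27 were 2-fold higher and 1 was lower, against 3.47% of all genes higher and 2.3% lower. The lower one was SLC3A1 (rBAT), the heavy chain of the renal cystine carrier, at 8.12 in ALDH+ DOX and 9.33 in ALDH+ control cells, a difference of -1.20. In ALDH- cells it was at 9.26 with DOX and 9.56 in the control. The other 2 probe sets of SLC3A1 lay under 6 in all arrays and did not follow it. The carriers nearest to 2-fold higher were SLC7A7 (0.95) and SLC1A1 (0.88, with its other probe set at -0.26), and the median of the 27 was 0.037, against 0.12 over all genes in this pair. By the same size, the DOX difference of ALDH+ minus that of ALDH- cells called 0 of 28 members, against 3.78% of all genes higher and 2.4% lower, with SLC7A7 at 0.99 and SLC3A1 at -0.91.

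Probe sets of the same carrier disagreed in the ALDH+ pair. This was looked at after the values were seen. Among 15 members with 2 or more probe sets at a level of 6, differences with DOX in ALDH+ cells spread over 1 or more on the log2 scale in 6, or 40%, against 24.1% of all such genes. The 6 were SLC1A1, SLC6A6, SLC7A1, SLC7A11, SLC38A1 and SLC38A10. In ALDH- cells the count was 0 of 15, against 0.365%. In 5 members, SLC6A6, SLC7A1, SLC7A2, SLC7A11 and SLC38A1, the brightest probe set moved by less than 0.5 while another was lower by 1 or more, against 10.9% of all genes. The reverse pattern occurred for SLC38A9 alone, against 2.53% of all genes. Members and all genes were not matched for their number of probe sets, and a spread can only widen as probe sets are added. The part of that number in these shares was not tested.

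The widest spreads were those of SLC38A1 and SLC6A6. For SLC6A6, probe set 211030_s_at was at 6.48 in ALDH+ DOX and 9.05 in ALDH+ control cells, and 205921_s_at was at 7.21 in ALDH+ DOX and 9.34 in ALDH+ control cells. The brightest, 228754_at, was at 11.89 and 12.37 in the same arrays, so that differences of -2.57, -2.13 and -0.48 came from the same gene. For the glutamine carrier SLC38A1, probe set 224580_at was at 8.36 in ALDH+ DOX and 10.56 in ALDH+ control cells, a difference of -2.20, while its brightest was at 12.92 and 12.84. The cystine exchanger SLC7A11 split in the same way, with 207528_s_at at 8.48 in ALDH+ DOX and 9.90 in ALDH+ control cells and its brightest probe set at 12.56 and 12.54. For SLC7A1, probe set 212292_at differed by -1.88 and the brightest by -0.27. For SLC7A2 the 3 probe sets differed by -1.38, -1.29 and -0.43. For SLC38A9, 243709_at was higher with DOX by 1.28 and the brighter 235241_at by 0.29.

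Some control probe sets moved in the same array, and others moved less. For 18S ribosomal RNA, the probe sets at the 3′ and 5′ ends were at 10.40 and 10.42 in ALDH+ DOX against 12.29 and 12.36 in ALDH+ control cells, and the middle one of beta-actin was at 12.27 against 12.94. Between these arrays the middle 18S probe set differed by -0.30, and the 3′ and 5′ ones of beta-actin by -0.066 and -0.46. The GAPDH probe sets were higher with DOX by 0.16 to 0.39. For beta-actin the 3′ probe set exceeded the 5′ one by 3.50 in ALDH+ DOX and 3.11 in ALDH+ control cells, and by 3.87 in ALDH- DOX and 3.70 in ALDH- control cells on the log2 scale. For GAPDH it exceeded it by 0.33 in ALDH+ DOX and 0.56 in ALDH+ control cells, and by 0.98 in ALDH- DOX and 0.87 in ALDH- control cells. Their part in the split between probe sets was not tested.

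**Figure D5:**
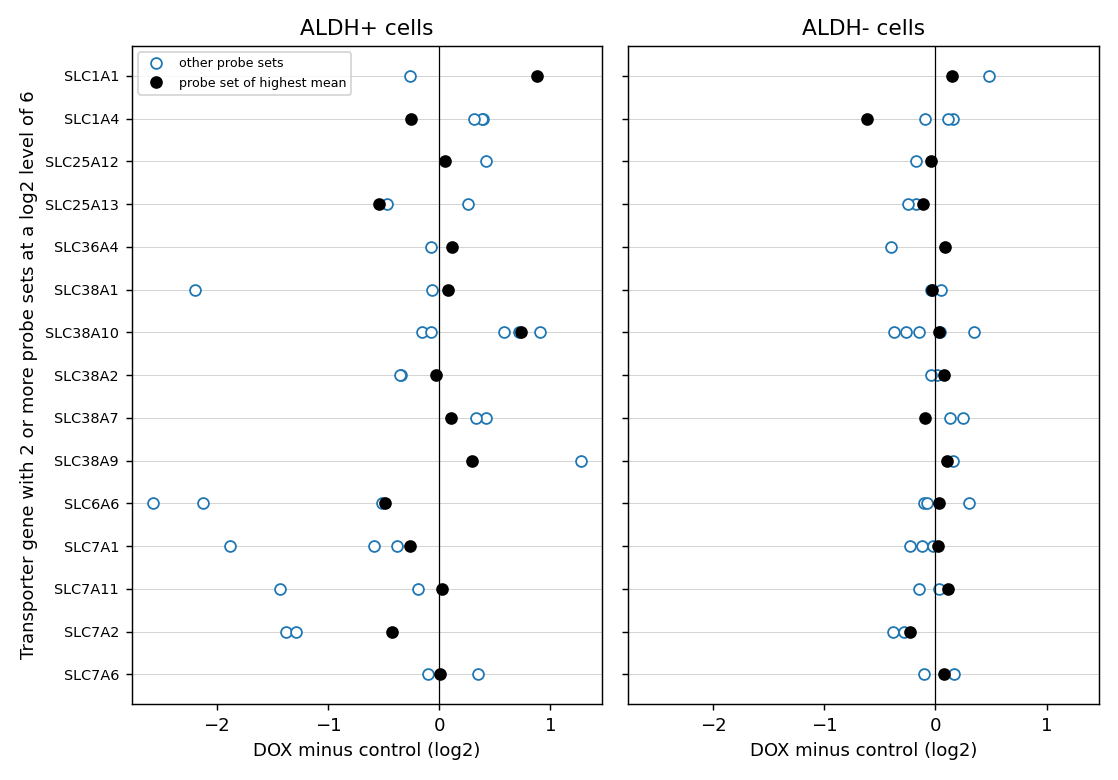
DOX minus control difference on the log2 scale for each probe set at 6 or more of the 15 transporters with at least 2, in ALDH+ cells (left) and ALDH- cells (right). Filled points are the probe set of highest mean, open points the others. In ALDH+ cells SLC6A6, SLC38A1, SLC7A1, SLC7A11 and SLC7A2 each have at least 1 open point at -1.29 or lower, away from the filled point, and in ALDH- cells the points of each gene lie within 1 of each other.

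The last 8 members lay under a log2 level of 6 in all arrays, on all 14 of their probe sets, between 3.29 and 5.09. They were the glycine carrier SLC6A9, the broad carrier SLC6A14, the arginine carrier SLC7A3, SLC7A8 (LAT2), SLC7A10 (Asc-1), the aromatic amino acid carrier SLC16A10 and the glutamine carriers SLC38A3 and SLC38A5. Their differences between arrays ran from -0.59 to 0.44 and are differences of background. SLC38A10, with 6 probe sets at a level of 6, had an ALDH estimate of -0.45 (limma adjusted p = 0.292), and its probe sets went both ways.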

How the data were processed

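Expression was measured in 4 groups of sorted SUM159 cells, 1 Affymetrix array each. Per the labels, the authors deposited log2 probe set levels made with RMA (background correction, quantile normalisation, 1 value for each probe set), named without a version in the submitters' processing notes. The number of arrays limits the precision. The deposited levels were not scaled further. An array annotation of 2016 gave 41097 of 54675 probe sets 1 gene, 1801 several and 11777 none, and symbols were updated by gene identifier. The probe set of highest mean stood for a gene. Differences of 2-fold or more (1 on the log2 scale) with a level of 6 in at least 1 array were called by size, with no test. The additive model (ALDH, DOX) was fitted over 12365 genes in R 4.3.3 by lmFit and a trended eBayes of limma 3.58.1 (prior degrees of freedom 11.6), adjusted after Benjamini and Hochberg, and tested on simulated data. There the ALDH term called 41% of genes changed by 1 on the log2 scale, 100% of those changed by 2 and 0.00822% of unchanged genes. A gene that did not pass may therefore still differ. Every member was eligible to be named, and from the other lists up to 6 genes with the largest estimates, besides ATF4, MYC and NFE2L2. Members and lists were chosen with earlier results of these data known. Python 3.11.15 was used for the rest. Alternatives were array centring, cyclic loess, other filters and floors, other choices of probe set, 1.5-fold and other eBayes settings.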

Additional observations from a re-analysis of the deposited data

Results flagged for a closer look

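In 4 transporters, a probe set differed between the groups in opposite directions, by 1 or more on the log2 scale between the differences. With 1 array per group none of these differences was tested. For SLC6A6, 211030_s_at differed with DOX by -2.57 in ALDH+ and 0.30 in ALDH- cells, -2.87 apart. For SLC38A1, 224580_at differed between ALDH+ and ALDH- by -1.71 with DOX and 0.45 in the controls, -2.15 apart. For SLC7A1, 212292_at gave -0.88 with DOX and 0.98 in the controls, -1.86 apart. For SLC7A11, 207528_s_at gave -1.05 with DOX and 0.23 in the controls, -1.28 apart. In each case the ALDH+ DOX array held the lowest of the 4 levels, while on the brightest probe set of these genes the same differences were between -0.52 and 0.11 apart.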

How the results depend on the processing

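SLC1A4, SLC1A5, SLC43A1 and SLC1A1 passed the ALDH test under all 10 alternatives, with estimates from 1.87 to 2.35, 1.15 to 1.20, 1.38 to 1.43 and -2.41 to -2.30, and SLC3A2 under the 9 that left it a probe set (0.77 to 0.83). Of 1769 values of single transporters under alternatives, 1709 kept their side of the threshold, 21 lost and 38 gained a call (24 of these at 1.5-fold) and 1 turned: without the probe sets that can match several transcripts, SLC3A1 with DOX in ALDH+ cells was at 0.094, a difference of background. The ALDH test passed 3 members lower without a filter on level, against 2.07% of all genes, and 3 with the mean of probe sets, against 6.91%. It passed 3 higher without shared probe sets, against 12.4%, where SLC3A2 and SLC7A5 had none left. By size, ALDH+ over ALDH- in the controls called 1 lower with the mean of probe sets, against 3.7% of all genes. At 1.5-fold it called 5 higher and 7 lower, against 13.8% and 12.3%. With DOX it called 5 lower after either centring (on all probe sets or on genes at 6, the last chosen after seeing the data). The shares of all genes were 5.72% and 6.91%. In the same pair 1 was lower without shared probe sets, against 6.39%, and 8 at 1.5-fold, against 12.6%. DOX in ALDH+ cells called 2 lower with the mean of probe sets (SLC6A6 at -1.21 and SLC7A2 at -1.03), against 2.18% of all genes. Without shared probe sets it called 0 lower, against 2.83%. At 1.5-fold DOX called 3 higher in ALDH+ cells, against 14.6%, and 2 lower in ALDH- cells, against 0.618%. The difference of the DOX differences called 1 lower with the mean of probe sets and 1 after centring on genes at 6, against 2.13% and 3.56% of all genes. At 1.5-fold it called 4 higher and 2 lower, near the 14.8% and 7.5% of all genes. The ALDH calls of SLC6A6, SLC25A13, SLC36A1, SLC38A4, SLC6A15 and SLC7A5 were each lost under at least 1 alternative, with adjusted p up to 0.0943, 0.0999, 0.0901, 0.0671, 0.163 and 0.22 by limma. The cause was not tested. No paired analysis was possible because each group holds 1 array and the labels give no replicate numbers.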
